A study of Eriocheir sinensis with 9 samples.

Results

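The step from 27 to 32 °C was examined in eyestalk RNA from Eriocheir sinensis, the Chinese mitten crab, in 6 of the 9 RNA sequencing libraries analysed, 3 at each of these temperatures. The crabs were wild type and between molts, and were held at 25 °C before they were assigned to 1 of 6 temperatures, with 3 parallel replicates of 16 crabs at each. The temperature stands in the library titles alone, since the treatment field reads untreated for all libraries, and the labels give neither the length of the exposure nor the number of crabs behind a library. What the p-values measure is thus the spread among libraries, part of which may be technical. The series' design text names muscle, ATAC sequencing and Illumina instruments, whereas the sample labels name eyestalk and DNBSEQ. Transcripts were followed as 267789 numbered isoforms, and 89048 of them were tested, those that reached 1 FPKM in 3 or more of the 6 libraries. FPKM scales fragments by transcript length and by the mapped fragments of a library. No gene name is paired with an isoform number in the table, and 0 numbers matched the gene table used here, so the tissue could not be checked against marker genes. Isoforms are described as groups, and 4 of them by number.

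The crustacean eyestalk carries the compound eye and the optic ganglia, and it houses a neuroendocrine centre made up of the X-organ and the sinus gland. This centre releases peptide hormones that act on molting, blood sugar, reproduction and pigment movement. A crab does not regulate its body temperature by metabolic heat, so its tissues follow the water around it. In RNA from a whole organ, fewer cells of a type and less RNA per cell cannot be told apart.

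The rule for low values split isoforms of similar level. Of those just inside it, 13323 reached 1 FPKM in exactly 3 of the 6 libraries, with medians of the group means of 1.13 FPKM at 27 and 1.18 FPKM at 32 °C. Of those just outside, 15958 did so in 2 libraries, with medians of 0.823 and 0.883 FPKM. The isoforms tested held between 96.3 and 97.4% of the summed FPKM of each of the 6 libraries. Of the 89048, 73931 were above 0 in all 6 libraries. Another 192 were listed at 0 in every 27 °C library and 128 in every 32 °C library. An isoform at 0 throughout one temperature was tested only because all 3 libraries of the other temperature reached 1 FPKM, so such isoforms had to differ.

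Single libraries of the same temperature differed nearly as much as libraries of different temperatures. Between the 3 pairs at 27 °C, 19.2 to 20.4% of the isoforms differed by 1 or more on the log2(FPKM + 1) scale, the scale on which all changes are given. Between the 9 pairs across temperatures the share was 20.8 to 24.7%. At 32 °C replicates 2 and 3 differed in 18.8%, the lowest share of the 15 pairs, whereas replicate 1 differed from them in 23.3 and 21.8%. Replicate 1 at 32 °C was no farther from the 27 °C libraries, at 21.4 to 21.7%, than from its own group. This library stood apart from its own group, whereas replicate 2 at 32 °C was the farthest from the 27 °C libraries, at 22.6 to 24.7%. Whether the label of replicate 1 is right cannot be settled from the values, and the 32 °C means and counts that follow rest on that label. The main counts are also given without replicate 1 at 32 °C.

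**Figure D1:**
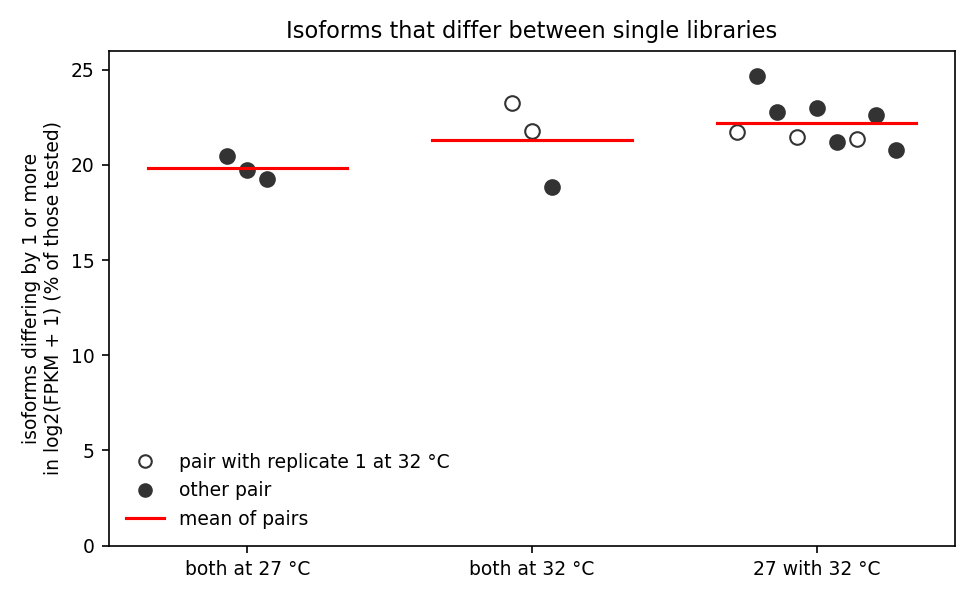
Percentage of the 89048 isoforms tested that differed by 1 or more in log2(FPKM + 1) between 2 single libraries, for pairs at 27 °C, pairs at 32 °C and pairs across temperatures, with red lines for the mean of each kind. Open circles are pairs with replicate 1 at 32 °C, which lie at 21.4 to 23.3%, and the remaining pair at 32 °C lies lowest, at 18.8%.

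Abundant isoforms varied more among the 32 than the 27 °C libraries, with the larger differences in pairs that held replicate 1 at 32 °C. Among isoforms with a mean of 50 FPKM or more, taken over the 6 libraries, the median standard deviation within a temperature was 0.28 at 27 °C and 0.37 at 32 °C, and 61.9% had the larger value at 32 °C. Among those under 2 FPKM the medians were 0.33 and 0.34. Of the isoforms of 50 FPKM or more, 27.4 and 22.5% differed by 1 or more between replicate 1 and replicates 2 and 3 at 32 °C. Replicates 2 and 3 differed from each other in 13.7%, a share like the 13.6 to 16.9% among the 27 °C libraries.

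A pair of summary values per library overlapped between the temperatures or placed the 32 °C libraries on both sides of those at 27 °C. Of the isoforms tested, 84513, 84885 and 85081 were above 0 at 27 °C and 84041, 85284 and 85689 at 32 °C. Their means were 84826 ± 289 and 85005 ± 859 (SD, n = 3 each), and the groups overlapped. The fewest isoforms that held 50% of the summed FPKM numbered 309, 332 and 309 at 27 °C and 288, 477 and 405 at 32 °C. Here replicate 1 at 32 °C lay below all 27 °C libraries and replicates 2 and 3 above them, with means of 317 ± 13.3 and 390 ± 95.4 (SD, n = 3 each). Two-sided exact permutation tests gave p = 0.8 and p = 0.4, both 0.8 after Benjamini-Hochberg adjustment, where 0.1 is the smallest p that 3 against 3 libraries allow. Without replicate 1 at 32 °C the differences were 660 isoforms above 0 and 124 isoforms to 50%, each with an exact p of 0.2, the smallest that 3 against 2 libraries allow. In both values replicates 2 and 3 at 32 °C lay above all 27 °C libraries. The difference in isoforms above 0 changed direction, to -164, without replicate 3 at 32 °C, and was 21.7 and 38.7 without replicate 1 at 27 °C or replicate 2 at 32 °C. That to 50% was 29.8 without replicate 2 at 32 °C.

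The most abundant isoforms held a smaller share of summed FPKM in replicates 2 and 3 at 32 °C than in the 27 °C libraries. The isoforms with a mean of 1000 FPKM or more numbered 379, a class set after the plot of change against abundance had been seen and therefore given with no test. They held 51.8, 50.6 and 52.0% of summed FPKM in the 27 °C libraries, and 53.2, 42.1 and 46.0% at 32 °C. Their median level was 1673, 1646 and 1666 FPKM in the 27 °C libraries. It was 1813 FPKM in replicate 1 at 32 °C, above all 27 °C libraries, and 1235 and 1370 FPKM in replicates 2 and 3, below them. The same isoforms stood at medians of 2392, 2085 and 1984 FPKM in the 22 °C libraries. Their median change from 27 to 32 °C was -0.30, with 263 lower and 116 higher, and it was -0.47 without replicate 1 at 32 °C, with 280 lower and 99 higher. It kept its sign after the other scalings, at -0.22 as TPM, -0.30 after median-of-ratios scaling and -0.13 after quantile normalization. In 26 of the 379, or 6.86%, all 3 values at 32 °C lay below the 3 at 27 °C, and in 39, or 10.3%, above them, against 7.43 and 7.62% of all isoforms tested. The balance of these 2 counts changed with the scaling, to 35 below and 31 above as TPM and to 44 below and 20 above after quantile normalization, and was 17 and 36 after median-of-ratios scaling. Without replicate 1 at 32 °C, 193 lay below and 55 above, 50.9 and 14.5% of the class, against 13.3 and 16.5% of all isoforms tested. This left out the only 32 °C library whose median lay above those at 27 °C, so the balance was partly set in advance. These 2 counts were not made with another 32 °C library left out. The next class down, 244 isoforms of 500 to 1000 FPKM, had a median change of -0.04, and 1652 isoforms of 50 to 200 FPKM had 0.01.

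Over all isoforms tested, the change from 27 to 32 °C was small and close to symmetric. The median was 0.01, and the middle 50% of isoforms lay between -0.28 and 0.32. The median size of a change was 0.30, and the median standard error was 0.33. At 32 °C, 4949 isoforms (5.56%) were higher by 1 or more and 3984 (4.47%) were lower. In 2055 and 1598 of these, 2.31 and 1.79% of those tested, the 3 values at one temperature also all lay beyond the 3 at the other. Of all isoforms tested, 15.1% had groups that did not overlap, 7.62% with higher and 7.43% with lower values at 32 °C. Without replicate 1 at 32 °C, 6997 isoforms (7.86%) were higher by 1 or more and 4661 (5.23%) were lower. Groups did not overlap in 4525 and 2831 of these, 5.08 and 3.18% of those tested. Groups of 3 and 2 libraries separate more easily than groups of 3 and 3, so these counts cannot be set against those above. Such counts were not made with another 32 °C library left out.

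From 27 to 32 °C, 89 isoforms rose and 74 fell, 0.0999 and 0.0831% of those tested. Together these 163 calls were 0.183% of the isoforms tested, by limma with a Benjamini-Hochberg adjusted p below 0.05. At an unadjusted p below 0.05, limma called 8610 isoforms, or 9.67%. All 163 calls had groups that did not overlap, as had 15.1% of all isoforms tested. The rule for low values fixed this for 48 rises at 0 throughout 27 °C and 45 falls at 0 throughout 32 °C. The other calls were selected on the same values. The risen isoforms had a median of 0 FPKM at 27 and 9.42 FPKM at 32 °C, over group means, and the fallen ones of 5.89 and 0 FPKM. Both sets held little of the summed FPKM. The risen isoforms held 0.0114% ± 0.000570 of summed FPKM in the 27 °C libraries and 0.141% ± 0.0169 at 32 °C, and the fallen ones 0.119% ± 0.0327 and 0.00323% ± 0.000416 (SD, n = 3 each). These shares describe the sets, which were chosen on the same libraries.

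The counts depended on single libraries, on the 22 °C libraries, which entered the fit for the estimate of spread, and on the model. With the replicate number as a block, 27 rose and 18 fell. Without replicate 1 at 32 °C, 117 isoforms rose and 83 fell, including 65 of the 89 rises and 41 of the 74 falls. Without replicate 2 at 32 °C, 46 rose and 53 fell, so that falls were the more frequent there. Without replicate 3 at 32 °C, 47 rose and 39 fell. Rises numbered 47 and 52 and falls 33 and 36 without replicate 2 or 3 at 27 °C. Falls also dropped to 48 without replicate 1 at 27 °C and to 44 without replicate 1 at 22 °C. With the 6 libraries of 27 and 32 °C alone, 61 rose and 49 fell, of which 34 and 24 were among the calls above.

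**Figure D2:**
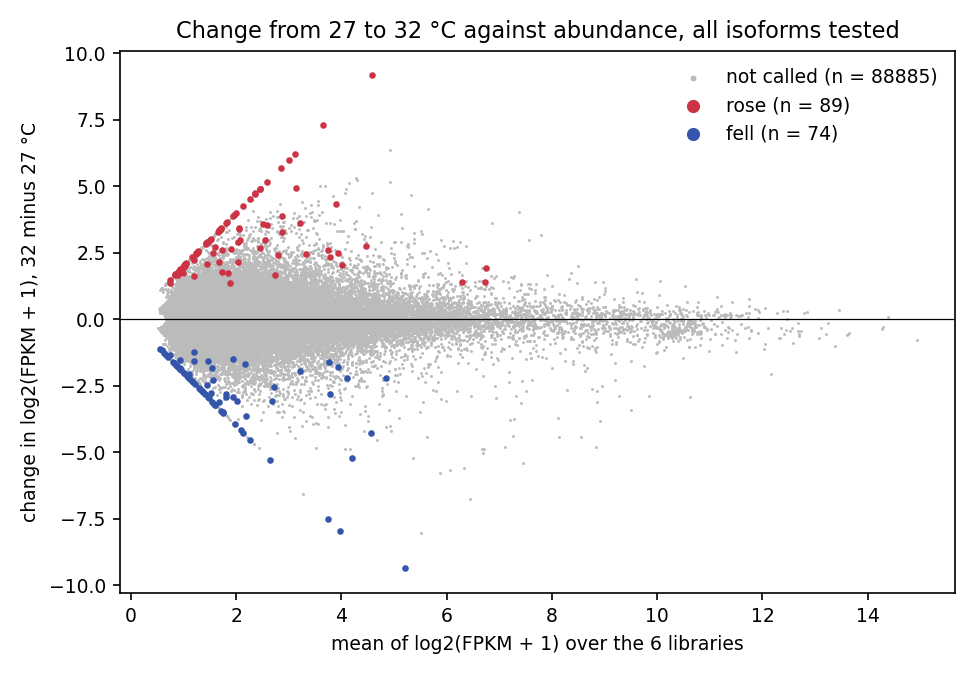
Change in log2(FPKM + 1) from 27 to 32 °C against the mean of log2(FPKM + 1) over the 6 libraries, 1 point per isoform tested, with the 89 that rose in red, the 74 that fell in blue and the others in grey. The straight edges of coloured points hold isoforms listed at 0 throughout one temperature, and the grey points at the right, the most abundant isoforms, lie mostly below 0.

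In the fit of all 9 libraries, 48 of the 89 rises were of isoforms listed at 0 in every 27 °C library. Of the 192 isoforms tested with that pattern, 25% were called. Their number and their part of the rises moved with the libraries used. They were 27 of 68 without replicate 1 at 27 °C, 24 of 47 without replicate 2 and 24 of 52 without replicate 3 there. Without replicate 1, 2 or 3 at 32 °C they were 50 of 117, 31 of 46 and 36 of 47. At 32 °C the 48 had a median group mean of 7.28 FPKM, from 1.82 to 575 FPKM. They fell into groups by their level at 22 °C, which the contrast did not use but which entered the estimate of spread. In 23 of them all 3 libraries at 22 °C were above 0, with a median group mean of 9.87 FPKM in the 22 °C libraries and 9.42 FPKM in the 32 °C libraries. These isoforms were thus listed at 0 at the middle temperature and present on either side of it. Another 20 were listed at 0 at 22 °C as well, so that they were listed above 0 at 32 °C alone, with a median of 5.51 FPKM. The other 5 were above 0 in some 22 °C libraries, with group means of 0.0133 to 0.743 FPKM there. Of the 192 isoforms tested with the pattern, 54 were above 0 in every 22 °C library and 31 at 0 in every one. Called were 42.6% of the 54 and 64.5% of the 31, so the split also reflects which isoforms could be called.

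The largest rise was of an isoform present at 22 and 32 °C and listed at 0 at 27 °C. Its 3 libraries at 27 °C were listed at 0, and it stood at 613, 587 and 525 FPKM in the 32 °C libraries. The 22 °C libraries had 171, 438 and 415 FPKM. The next largest had the same pattern, with 0 in all 27 °C libraries, 215, 216 and 84.1 FPKM in the 32 °C libraries and 307, 271 and 296 FPKM in the 22 °C libraries. In both, every library at 22 and 32 °C stood at 84.1 FPKM or more. Of the isoforms at 0 at both cooler temperatures, the one with the largest rise stood at 139, 65.6 and 13.6 FPKM in the 32 °C libraries. Its libraries at 32 °C differed from each other far more than those of the isoform with the largest rise. No fold change is given against a group at 0, where an exact 0 can also be a failed estimate.

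Of the 74 falls, 45 were of isoforms listed at 0 in every 32 °C library. Of the 128 isoforms tested with that pattern, 35.2% were called. Such falls numbered 28 of 83 without replicate 1 at 32 °C, 19 of 53 without replicate 2 and 16 of 39 without replicate 3 there. Without replicate 2 at 27 °C they were 26 of 33. At 27 °C the 45 had a median group mean of 4.55 FPKM, from 1.15 to 279 FPKM. In 26 of them all 3 libraries at 22 °C were at 0 too, so that they were listed above 0 at 27 °C alone, with a median of 3.60 FPKM and a highest group mean of 19.9 FPKM. In 13 all 22 °C libraries were above 0, with medians of 12.9 FPKM in the 22 °C libraries and 9.03 FPKM in the 27 °C libraries. The other 6 were above 0 in some 22 °C libraries, at group means of at most 0.673 FPKM. Of the 128 isoforms tested with the pattern, 37 were at 0 in every 22 °C library and 31 above 0 in every one. Called were 70.3% of the 37 and 41.9% of the 31.

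The isoforms at 0 at 32 °C and present at both cooler temperatures included more abundant ones. The largest change among the 13 was of an isoform with 751, 844 and 259 FPKM in the 22 °C libraries. It stood at 176, 173 and 487 FPKM in the 27 °C libraries and at 0 in all 3 libraries at 32 °C. The smallest adjusted p of all 163 calls, 1.96e-05 (limma, Benjamini-Hochberg), belonged to another of the 13. That isoform stood at 1029, 903 and 1002 FPKM in the 22 °C libraries and at 226, 172 and 150 FPKM in the 27 °C libraries. Another stood at 28.0, 25.6 and 23.2 FPKM in the 22 °C libraries, at 23.3, 52.1 and 44.9 FPKM in the 27 °C libraries and at 0 throughout 32 °C. Among the 26 listed above 0 at 27 °C alone, the highest stood at 35.3, 8.44 and 16.0 FPKM there. A steadier isoform of these 26 stood at 9.63, 10.7 and 9.18 FPKM. The largest change among all 163 calls, -9.36, was of a fallen isoform outside these groups. It was among 11 falls above 0 in some but not all 32 °C libraries. Its levels were 1843, 1870 and 644 FPKM in the 22 °C libraries and 647, 872 and 1473 FPKM in the 27 °C libraries. The 32 °C libraries had 0.96, 0 and 0.51 FPKM. This isoform and that with the smallest adjusted p were both called in all 9 leave-one-out fits.

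The 46 isoforms at 0 in both other temperatures, 20 risen and 26 fallen, had no spread in 6 of the 9 libraries. Their standard errors had medians of 0.22 and 0.18, against 0.30 and 0.35 for the 23 and 13 isoforms that were present at 22 °C. Of these 4 groups 8, 10, 17 and 6 isoforms were also called with the 27 and 32 °C libraries alone, and 16, 18, 20 and 7 without replicate 1 at 32 °C. With a pseudocount of 0.01 in place of 1, the calls were kept by 3 of the 20 and 0 of the 26, and by all of the 23 and of the 13.

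**Figure D3:**
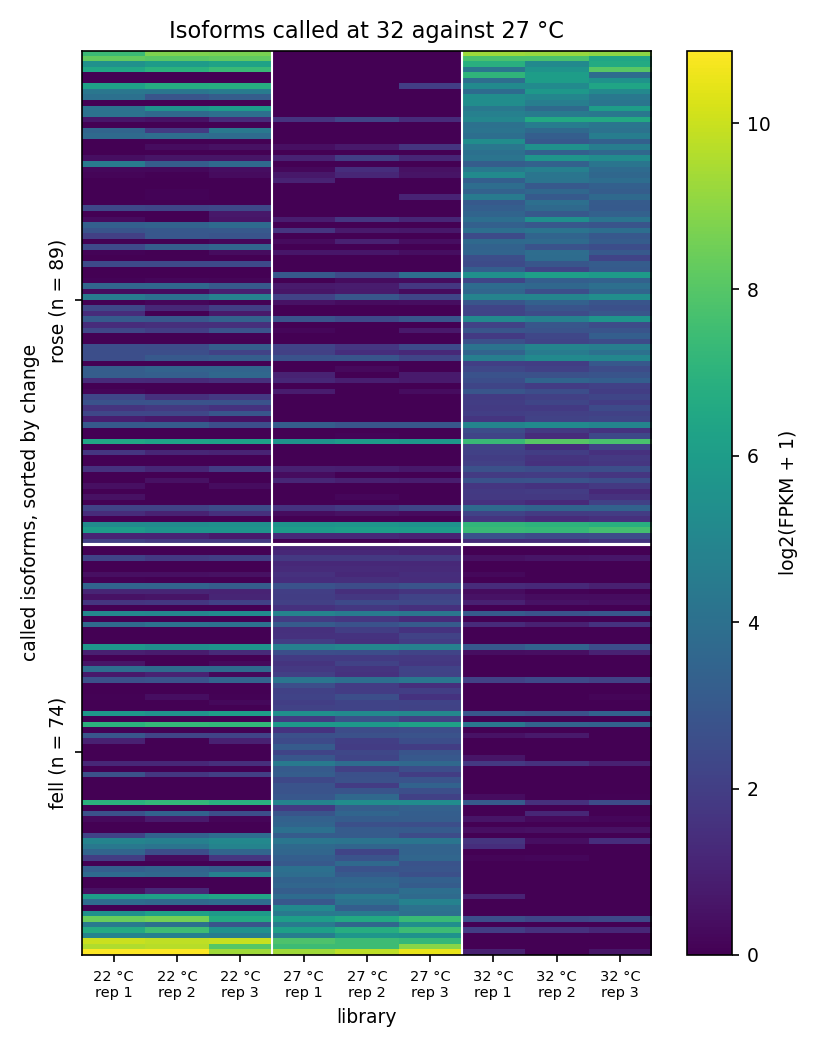
Log2(FPKM + 1), as colour, of the 163 called isoforms in the 9 libraries, sorted by change with the 89 that rose above the white line and the 74 that fell below it. The 27 °C columns are at 0 for 48 risen isoforms and the 32 °C columns for 45 fallen ones, whereas the 22 °C columns, not used in the contrast, are bright in some rows and at 0 in others.

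A smaller group changed by degree, with every one of the 6 libraries above 0. Of 73931 such isoforms 46 were called, or 0.0622%, with 28 rises and 18 falls. The ratio of group means was 2.69 to 30.3 among the rises, with a median of 7.99, as 32 over 27 °C. Among the falls it was 3.42 to 57.5 with a median of 6.85, as 27 over 32 °C. In all 28 rises the 3 values at 22 °C lay below the 3 at 32 °C, and in 24 the mean at 22 °C was nearer to that at 27 °C on the log2 scale. In 14 of the 18 falls the 3 values at 22 °C lay above the 3 at 32 °C. The called isoforms were selected for a gap between 27 and 32 °C, so these positions are a description. The shares of all isoforms tested with such positions are not given here.

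These graded calls rested on the pooled spread and on the libraries used. With the 27 and 32 °C libraries alone 4 isoforms of this kind rose and 5 fell, and 3 of the 28 and 3 of the 18 were among them. Without replicate 1 at 32 °C, 48 rose and 24 fell, without replicate 2 there 10 and 7, and without replicate 3 there 7 and 9. Without replicate 1, 2 or 3 at 27 °C they were 8 and 9, 10 and 3, and 12 and 2. They were 12 and 4 without replicate 1 at 22 °C, 20 and 12 without replicate 2 there and 22 and 11 without replicate 3 there, and 4 and 1 with a replicate block.

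The 3 most abundant graded rises differed less between 22 and 27 °C than between 27 and 32 °C. An isoform at 61.8, 66.4 and 62.9 FPKM in the 27 °C libraries stood at 166, 155 and 194 FPKM in the 32 °C libraries, a ratio of 2.69, and at 62.4, 49.1 and 48.5 FPKM in the 22 °C libraries. A similar one stood at 47.2, 49.2 and 44.9 FPKM in the 27 °C libraries and at 143, 128 and 114 FPKM in the 32 °C libraries, with 36.4, 37.3 and 41.7 FPKM in the 22 °C libraries. The last of them stood at 47.2, 61.6 and 53.5 FPKM in the 27 °C libraries and at 164, 266 and 213 FPKM in the 32 °C libraries, with 84.9, 72.8 and 72.0 FPKM in the 22 °C libraries. In these 3 isoforms all 32 °C libraries lay above all libraries at the cooler temperatures. The adjusted p (limma, Benjamini-Hochberg) was 0.0344, 0.0240 and 0.0210.

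Some of the graded falls were also higher in every 22 °C library than in any at 27 °C, a difference not tested here. An isoform at 125, 149 and 144 FPKM in the 22 °C libraries stood at 56.8, 55.5 and 72.6 FPKM in the 27 °C libraries and at 18.7, 10.1 and 9.78 FPKM in the 32 °C libraries. Another stood at 122, 147 and 115 FPKM in the 22 °C libraries, at 28.7, 39.0 and 38.5 FPKM in the 27 °C libraries and at 7.81, 1.87 and 4.52 FPKM in the 32 °C libraries. Replicate 1 was the highest of the 3 libraries at 32 °C in both, as it was in 18 of the 29 fallen isoforms that were above 0 in some 32 °C library. Among the 89 rises replicate 1 was the lowest library at 32 °C in 32, replicate 2 in 31 and replicate 3 in 26. Other graded falls were low at 22 °C, such as one at 1.30, 1.28 and 1.73 FPKM there. That isoform stood at 21.2, 13.2 and 11.9 FPKM in the 27 °C libraries and at 2.48, 1.95 and 1.02 FPKM in the 32 °C libraries.

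The 4 isoforms given by number had the largest changes among called isoforms with a group mean of at least 1 FPKM at both temperatures, 19 of which had risen and 12 fallen. Isoform_19469 rose from near 0 at 27 °C and was also high at 22 °C. It stood at 0, 0 and 3.09 FPKM in the 27 °C libraries, at 36.1, 36.3 and 82.7 FPKM in the 32 °C libraries and at 74.6, 105 and 108 FPKM in the 22 °C libraries. All libraries at 22 and 32 °C lay far above those at 27 °C. The log2 change was 4.93 (standard error 0.59), with a Benjamini-Hochberg adjusted p of 0.0258 in limma. It was called in 1 of 9 leave-one-out fits, that without replicate 3 at 27 °C, with an adjusted p of up to 0.0921 in the others, and in 11 of 15 other settings, with adjusted p from limma of 0.0112 to 0.393 over all of them.

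Isoform_73333 was low at both cooler temperatures. It stood at 2.14, 3.70 and 1.50 FPKM in the 27 °C libraries and at 30.7, 95.9 and 96.0 FPKM in the 32 °C libraries, with 0.560, 0.430 and 1.51 FPKM in the 22 °C libraries. Replicate 1 was the lowest of the 32 °C libraries and still above every cooler one. The ratio of group means was 30.3, and the log2 change 4.33 (standard error 0.48), with a Benjamini-Hochberg adjusted p of 0.0202 in limma. It passed in 3 of the 9 leave-one-out fits, those without replicate 2 or 3 at 22 °C or replicate 1 at 32 °C, with an adjusted p of 0.0506 to 0.0821 in the others, and in 11 of the 15 other settings. Its adjusted p in limma ran from 0.0067 to 0.395.

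Isoform_33129 was abundant at 22 and 27 °C and near 0 at 32 °C. It stood at 72.5, 109 and 174 FPKM in the 27 °C libraries, at 2.96, 1.90 and 1.33 FPKM in the 32 °C libraries and at 98.0, 181 and 44.2 FPKM in the 22 °C libraries. The ratio of group means was 57.5, the largest among the graded falls. Its log2 change was -5.23 (standard error 0.53), with a Benjamini-Hochberg adjusted p of 0.0132 in limma. The call held in 5 of the 9 leave-one-out fits and was lost without replicate 2 or 3 at 27 °C or at 32 °C, with an adjusted p of 0.0532 to 0.0635. It held in 13 of the 15 other settings, with adjusted p in limma from 0.00947 to 0.395.

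Isoform_61472 followed the same order of libraries at the cooler temperatures. It stood at 67.7, 96.2 and 166 FPKM in the 27 °C libraries and at 337, 388 and 95.4 FPKM in the 22 °C libraries. Its 32 °C libraries had 5.07, 3.86 and 4.09 FPKM. In both isoforms replicate 3 was the lowest library at 22 °C and the highest at 27 °C, and replicate 1 was the highest at 32 °C. The ratio of group means was 25.3, and the log2 change -4.29 (standard error 0.55), with a Benjamini-Hochberg adjusted p of 0.0360 in limma. It passed in 2 of the 9 leave-one-out fits, those without replicate 2 or 3 at 22 °C, with an adjusted p of 0.0652 to 0.133 in the others, and in 12 of the 15 other settings, with adjusted p in limma from 0.00947 to 0.395.

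**Figure D4:**
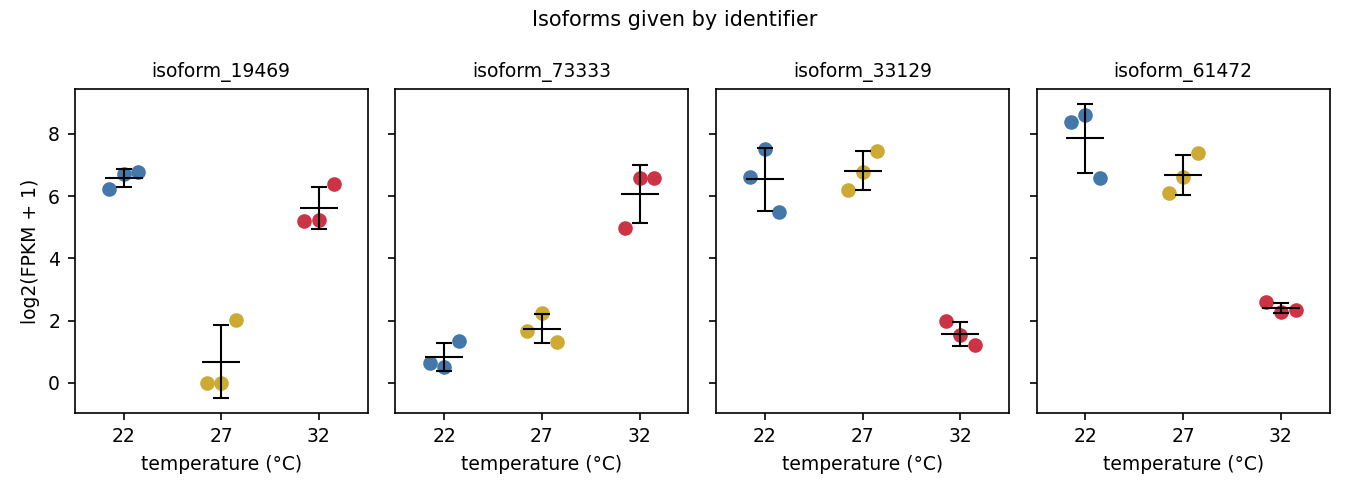
Log2(FPKM + 1) of the 4 isoforms given by number against temperature, with 1 coloured point per library, 3 at each temperature, and black bars for the mean and SD. Isoform_19469 is low at 27 °C alone, isoform_73333 is high at 32 °C alone, and isoform_33129 and isoform_61472 are low at 32 °C alone.

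Calls were made in every class of abundance given here, but not at the top of the range. None of the 244 isoforms of 500 to 1000 FPKM and none of the 379 of 1000 FPKM or more was called. Of 29963 isoforms averaging under 2 FPKM over the 6 libraries, 20 rose and 25 fell, and of 45432 of 2 to 10 FPKM, 42 rose and 36 fell. Of 10968 isoforms of 10 to 50 FPKM 21 rose and 8 fell, and in the class of 50 FPKM or more 6 rose and 5 fell of 2685. The called share was 0.15, 0.172, 0.264 and 0.41% in these classes. The smallest change called was 1.11 among isoforms under 2 FPKM and 1.41 among those of 50 FPKM or more, with median standard errors of 0.30 and 0.29 over all isoforms of these classes. Among isoforms of 50 FPKM or more, 86 were higher and 66 lower at 32 °C by 1 or more with groups that did not overlap, 3.2 and 2.46% of the class against 2.31 and 1.79% of all isoforms tested. Of these 2685 isoforms 11 were called. Without replicate 1 at 32 °C, 14, 63, 32 and 8 isoforms rose and 15, 41, 19 and 8 fell, from the lowest class to the highest, and the called share was 0.0968, 0.229, 0.465 and 0.596%.

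A 32 °C library left out of the fit mostly lay beyond the 27 °C libraries in the isoforms called without it. Risen isoforms at 0 throughout 27 °C are set aside here, because the rule for low values required all 3 libraries at 32 °C to reach 1 FPKM in them. Of the other rises, replicate 1 lay above all 27 °C libraries in 58 of 67, replicate 2 in 14 of 15 and replicate 3 in 11 of 11. The same rule fixed this position for any rise under 1 FPKM in every 27 °C library, and those were not set aside. In the rises called without replicate 2 or 3, the median group mean at 27 °C was 0.507 and 0.497 FPKM. Part of these counts was therefore fixed in advance. Among the falls, replicate 1 lay below all 27 °C libraries in 61 of 83, replicate 2 in 39 of 53 and replicate 3 in 34 of 39. In the 67 rises called without replicate 1 the medians were 1.09 FPKM in the 27 °C libraries, 6.23 FPKM in replicate 1 and 18.9 FPKM in replicates 2 and 3. In the 83 falls they were 10.1, 2.20 and 0 FPKM. Each set was selected on the libraries that remained, so these positions are a description, and a difference between the replicates was not tested. No share over all isoforms tested is given beside these counts, so they cannot be set against a background.

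The isoforms most stable to the choice of libraries were those listed at 0 in a whole group. Of the 163 calls, 29 rises and 20 falls were made in all 9 leave-one-out fits. Among them, 24 rises were at 0 in every 27 °C library and 16 falls at 0 in every 32 °C library. Only 4 of the 29 and 2 of the 20 were above 0 in all 6 libraries. An isoform at 0 throughout a group has no spread in that group in any of these fits. The rule for low values was set on all 6 libraries in each fit. It required such isoforms to reach 1 FPKM in all 3 libraries of the other temperature. Their stability was thus partly built in and is a description.

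**Figure D5:**
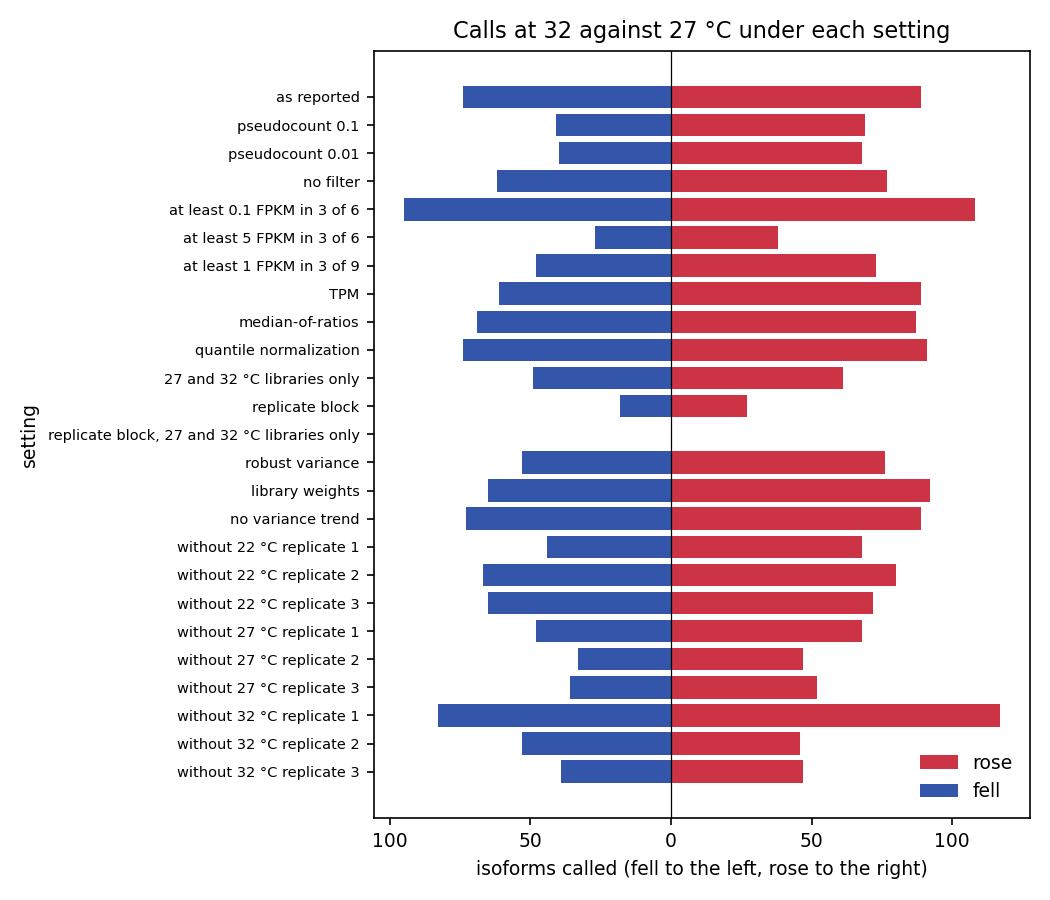
Number of isoforms that rose (red, to the right) and fell (blue, to the left) from 27 to 32 °C by limma's moderated test, as reported and under each other setting. Rises run from 0 to 117 and falls from 0 to 95, and falls outnumber rises without replicate 2 at 32 °C.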

How the data were processed

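Abundance was deposited by the authors as FPKM, 1 column per library with 2 decimals, per the file headers. The read aligner Bowtie2 and the abundance estimator RSEM are named per the submitters' processing notes. Not given in the sources used here are their versions and settings, the transcript set, the filters and the read totals. RSEM can share reads between similar isoforms, and a few abundant transcripts can shift all other FPKM values of a library. Summed FPKM ran from 1704917 to 2043049 over the 6 libraries. Columns were assigned by the library names in their headers, with 0 left unused, and 0 pairs of libraries were identical.

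Isoforms that reached 1 FPKM in 3 or more of the 27 and 32 °C libraries were tested on log2(FPKM + 1), with limma 3.58.1 in R 4.3.3. All 9 libraries were in the fit, with a trended variance, and the contrast was 32 minus 27 °C. The estimated prior degrees of freedom were 1.99. Tests were two-sided, and p-values were Benjamini-Hochberg adjusted over all 89048 isoforms. Changes on this scale understate those of isoforms near or below 1 FPKM. The fit was run on simulated data with normal noise. No simulated isoform was at 0 throughout a temperature, so calls of that kind were not covered. Values per library were compared by exact permutation tests (scipy 1.17.1). Isoforms given by number were the 2 largest rises and 2 largest falls among calls with groups that did not overlap and means of at least 1 FPKM at both temperatures. Isoforms described without a number, and the class of 1000 FPKM or more, were chosen after their values were seen. The libraries, filter, tests and rule were chosen with earlier results of these data known. Alternatives covered pseudocount, filter, scaling, libraries in the fit, a replicate block, variance models and leaving out each library. The counts of isoforms at 0 in a group or above 0 in all 6 libraries under these settings, and those by size, overlap and abundance without replicate 1 at 32 °C, were chosen after seeing the data. No gene list could be filled.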

Additional observations from a re-analysis of the deposited data

How the results depend on the processing

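The counts of 89 rises and 74 falls changed with the libraries, the filter and the model. Rises ranged from 46 to 117 and falls from 33 to 83 when any 1 of the 9 libraries was left out. At a minimum of 5 FPKM, which tests 28746 isoforms, 38 rose and 27 fell. Falls numbered 41 and 40 with pseudocounts of 0.1 and 0.01, 48 with the minimum of 1 FPKM set over 3 of all 9 libraries, and 49 with the 27 and 32 °C libraries alone. The cause was not tested. The direction did not turn for any of the 163 calls that were also called in another setting. All 163 had groups that did not overlap, so leaving out a library or changing the pseudocount could not have turned it. TPM, median-of-ratios and quantile scaling kept 80, 81 and 80 of the rises and 59, 67 and 72 of the falls.

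With a replicate block 27 isoforms rose and 18 fell, and with the block and the 27 and 32 °C libraries alone limma called 0 and 0, with 7006 at an unadjusted p below 0.05. The labels tie the replicate numbers to nothing shared. Deviations from the group means of same-numbered libraries at 27 and 32 °C correlated at 0.057, 0.0065 and -0.020 across isoforms, so not every library correlated best with its own number.

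The difference in isoforms above 0 ranged from -164 to 660 with a library left out, and that in isoforms to 50% of summed FPKM from 29.8 to 124. Read totals are unknown, so the depth behind low values could not be given.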
